A study of Mus musculus with 6 samples.

Results

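The genes described here are 28 enzymes and regulators of lipid synthesis in mouse pancreatic islets, chosen by name from the sterol and fatty acid pathways and found on the array through the RefSeq transcript of each probe. All 28 had a probe that passed the filter on dim probes, among 24127 genes tested, and 27 of them were well above background on all 6 arrays. The sterol arm held 19 genes and the fatty acid arm 9. The islets came from male C57BL6 mice of 8 weeks, fed chow and kept on a light cycle of 12 h light and 12 h dark. Collection was at zeitgeber times (ZT) 0, 4, 8, 12, 16 and 20, hours after lights on. A single Agilent one-colour array held each time, with RNA of 3 to 5 mice combined, so there were no replicates and no time was tested against another. All 6 pools had the same strain, sex, age, tissue and diet, and the time of collection was the only labelled difference.

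Cholesterol is built from acetyl-CoA through mevalonate, squalene and lanosterol, and fatty acids from the same acetyl-CoA through malonyl-CoA. Both routes are controlled by the SREBP transcription factors, membrane proteins of the endoplasmic reticulum that are carried to the Golgi by SCAP and cut there when sterols are low. SREBP2, from Srebf2, mainly drives the sterol genes, and SREBP1c, from Srebf1, mainly drives the fatty acid genes, which also respond to insulin and glucose. In beta cells these lipids supply secretory granule and plasma membranes.

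Levels are log2 processed signals with the 75th percentile of each array set to 0. A run of 6 levels or deviations is always given in the order of collection from ZT0 to ZT20. A deviation is a level minus the mean of that gene over the 6 arrays, and a range is the highest minus the lowest array. Spots of the 399 probes that were printed 10 times had a median SD of 0.05 to 0.09 log2 units on an array, which covers spot noise only. By their headers, ZT8 to ZT20 shared 1 scan, whereas ZT4 and ZT0 were each read in another scan, ZT0 on another date. Outlier spots, which were left out, numbered 1743 of 43020 on ZT0 and 166 to 247 on the other arrays. Readings that rest on ZT0 carry this limit. The share of spots well above background ran from 66.1% on ZT4 to 84.4% on ZT0. Endocrine islet cell markers were on the array for 16 of 16 genes, and all 16 were well above background except Neurod1 on ZT4. Marker RNA of cell types was unequal between the arrays: the median deviation of lymphocyte markers ran from -3.32 on ZT16 to 2.62 on ZT4, and that of endocrine markers from -2.88 on ZT12 to 1.22 on ZT0. In a bulk sample fewer cells of a type and less RNA per cell cannot be told apart.

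None of the 28 genes followed a 24 h cosine by the limma moderated F test with Benjamini-Hochberg adjustment over all genes. The background share of genes called was 0% (0 of 24127, smallest adjusted p 0.754), so this count could not set the lipid genes apart from other genes. At an unadjusted limma p under 0.05 the count was 0 of 28 against 4.0% of all genes, and it was also 0 of 28 with an ordinary F test (2.82% of all genes) and with an exact permutation of the 6 arrays (2.51%), whose p cannot fall below 0.0167. The smallest unadjusted limma p among the lipid genes was 0.133, for Acly. Without the ZT8 array Lss and Me1 had unadjusted limma p values of 0.0451 and 0.0457, with an adjusted p of 0.293 for both.

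Ranges of the lipid genes were read beside those of all genes tested. A range of at least 2-fold was found for 24 of 28 (90.2% of all genes), at least 4-fold for 10 of 28 (53.3%) and at least 8-fold for 1 of 28 (26.6%). The median range was 3.28-fold over the 28 genes, 3.39-fold in the sterol arm and 3.18-fold in the fatty acid arm, against 4.28-fold over all genes tested. With only ZT8 to ZT20 kept, 16 of 28 had a range of at least 2-fold (59.2% of all genes). These were 9 of 19 in the sterol arm and 7 of 9 in the fatty acid arm. Leaving out a single array moved the range of 12 of the 28 genes by over 1.5 times. The array concerned was ZT12 for 5 genes, ZT4 for 4, and ZT0, ZT8 and ZT16 for 1 each. The range without that array was 2.56-fold for Lss (ZT4), 1.77-fold for Tm7sf2 (ZT12), 3.09-fold for Srebf2 (ZT8), 2.37-fold for Insig1 (ZT12), 4.56-fold for Acly (ZT12) and 2.06-fold for Srebf1 (ZT12).

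**Figure D1:**
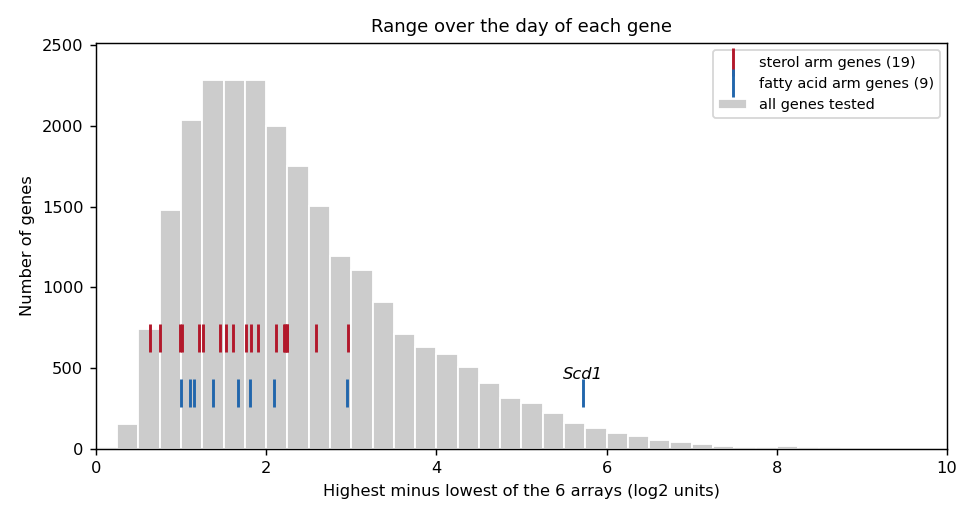
Histogram of the range over the 6 arrays (highest minus lowest, log2 units, horizontal axis) for all 24127 genes tested (grey bars, number of genes), with a tick for each sterol arm gene (red) and fatty acid arm gene (blue). All ticks but that of Scd1 lie at or below 2.97 log2 units, and Scd1 lies at 5.73.

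Of the 6 mevalonate-step genes, Mvk, Pmvk and Mvd were highest on ZT4, also with quantile normalization, and Hmgcs1 and Fdps stayed within 2-fold. The other probe of Pmvk was instead highest on ZT16 (1.74) and lowest on ZT0 (0.80), with 1.69 on ZT4. Hmgcs1, the HMG-CoA synthase that opens the pathway, had levels of 2.16, 2.29, 1.90, 2.52, 2.48 and 2.65. Its range was 1.69-fold, and 3.80% of all genes tested had a range no wider than that. Mvd, which decarboxylates mevalonate diphosphate, stood at -2.73, -0.48, -1.80, -0.90, -2.04 and -2.58 on the same arrays. It was highest on ZT4 and then ZT12, 4.75-fold above ZT0. Mvk and Pmvk, the mevalonate kinases, were also highest on ZT4 and lowest on ZT8, with ranges of 3.73-fold and 3.52-fold that were 1.56-fold and 1.92-fold without the ZT4 array. Idi1, which isomerises the isoprenoid building block, was highest on ZT12 (3.35) and lowest on ZT4 (1.59), and its 3.39-fold range was 1.81-fold without ZT12. Fdps, which makes farnesyl diphosphate, stayed within 1.98-fold.

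Of the 3 genes of squalene synthesis and its closure to lanosterol, 2 were highest on ZT16 or ZT20 (32.5% of all genes). Fdft1, squalene synthase, had levels of -0.92, 0.70, 1.02, 0.84, 1.67 and 1.47. ZT0 stood apart, since the 6.02-fold range was 1.97-fold without it. The other Fdft1 probe, well above background only on ZT0, ZT8 and ZT12, was highest on ZT8 (-5.18) and lowest on ZT20 (-7.26). Sqle, the squalene epoxidase and a rate-limiting step, stood at 4.36, 3.95, 3.68, 3.14, 4.75 and 4.57, which put ZT16 3.05-fold above ZT12. Lss, lanosterol synthase, had -3.26, -4.15, -1.90, -2.77, -2.02 and -2.10. It was 4.74-fold higher on ZT8 than on ZT4, and with quantile normalization ZT16 was its highest array. The fitted amplitude (cosine peak minus trough) was 1.58 ± 0.94 (SE) log2 units for Fdft1, 1.28 ± 0.74 for Sqle and 1.57 ± 0.90 for Lss, none of which passed the limma test (adjusted p 0.754 for each).

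After lanosterol the enzymes did not share a highest array. Ebp, a sterol isomerase, had the widest range of the sterol arm, with levels of 2.36, 5.32, 2.97, 3.99, 3.62 and 3.50. Its 7.82-fold range was 3.09-fold without ZT4 and 4.60-fold with quantile normalization. Nsdhl, a sterol dehydrogenase, was at -3.53, -3.89, -1.96, -1.87, -2.26 and -1.69, so ZT0 and ZT4 lay below the 4 arrays of the shared scan. Its other probe read ZT4 the opposite way, with ZT4 highest (-2.27) and ZT8 lowest (-4.14). Dhcr7, the reductase that completes cholesterol, had the smallest range of all 28 genes, 1.55-fold. Cyp51, the lanosterol demethylase, was highest on ZT12 (-0.04) and lowest on ZT4 (-1.30). Tm7sf2, Hsd17b7 and Sc5d had ranges of 2.74-fold, 2.31-fold and 2.88-fold. Stard4, a sterol transfer protein, ranged 2.02-fold, from 1.34 on ZT4 to 0.33 on ZT16.

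On ZT20 Srebf2 was lowest and Insig1 highest. Srebf2 had levels of -1.10, -2.59, -0.49, -1.09, -2.26 and -2.72, highest on ZT8 and 4.67-fold lower on ZT20. Its other probe was highest on ZT12 (-1.32) and then ZT4 (-1.65), and lowest on ZT16 (-3.93), so the 2 probes gave opposite readings of ZT4. Insig1, which holds SCAP and SREBP in the endoplasmic reticulum and is itself a target of SREBP, was at -4.87, -4.84, -4.90, -5.76, -4.47 and -3.65. The ZT12 spot was not well above background, so the fold of ZT20 over ZT12 is a lower limit within each scaling. It was 4.32-fold with the main scaling and 3.28-fold with quantile normalization. The cosine amplitudes were 1.39 ± 0.99 (SE) for Srebf2, with a fitted peak at ZT8.53, and 1.29 ± 0.80 for Insig1, with a fitted peak at ZT20.9 (limma adjusted p 0.770 and 0.754).

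**Figure D2:**
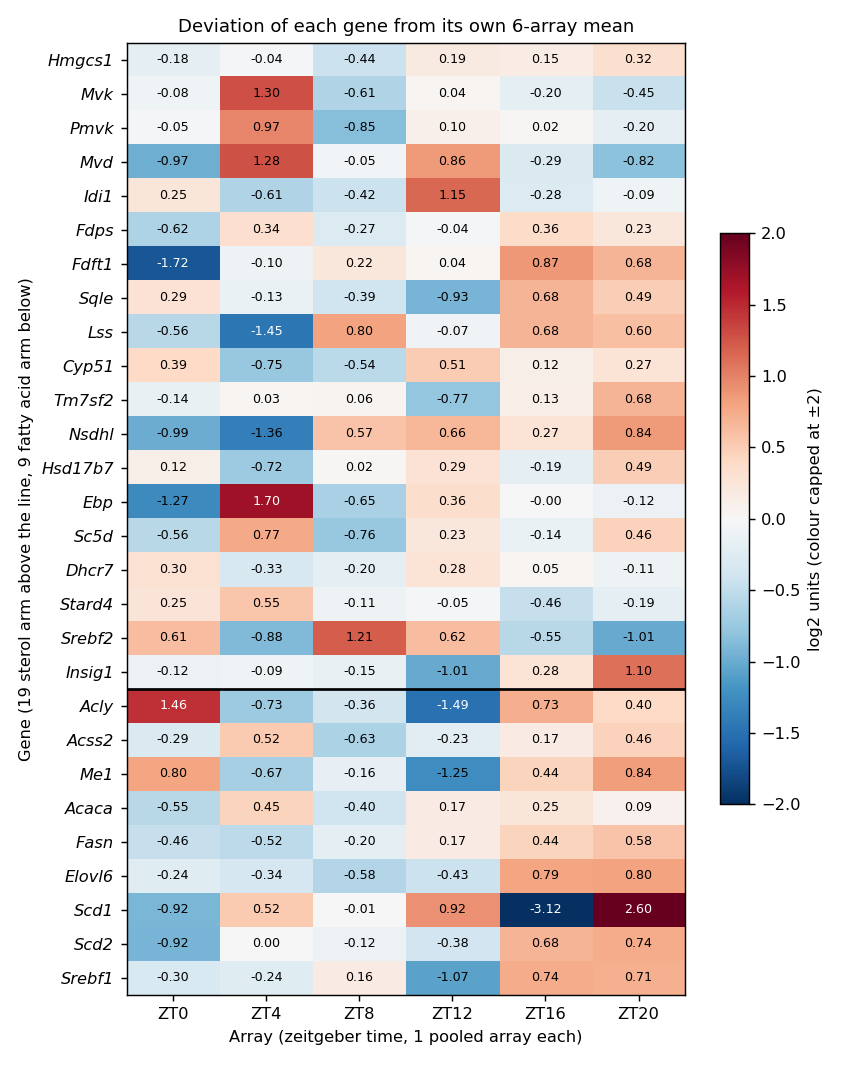
Heat map of the deviation of each gene (rows, sterol arm above the line and fatty acid arm below) from its own mean over the 6 arrays (columns, 1 pooled array per zeitgeber time), in log2 units, with the value printed in each cell and the colour capped at ±2. The ZT16 and ZT20 cells of the fatty acid arm are above 0 in 17 of 18 cases, the exception being Scd1 on ZT16 at -3.12.

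In the fatty acid arm the supply enzymes Acly and Me1 were low on ZT4 and ZT12. Acly, ATP citrate lyase, which makes cytosolic acetyl-CoA from citrate, had levels of 7.34, 5.15, 5.52, 4.39, 6.62 and 6.29. ZT0 was 7.71-fold above ZT12 (with quantile normalization ZT16 was the highest array), and ZT16 was 4.67-fold above ZT12 in the shared scan. The other Acly probe, well above background only on ZT8, ZT16 and ZT20, was highest on ZT20 (-4.04) and lowest on ZT0 (-6.80). Me1, malic enzyme, which makes NADPH, stood at 1.67, 0.21, 0.71, -0.37, 1.32 and 1.72, so ZT20 was 4.25-fold above ZT12. Both of its other probes were also highest on ZT20, and lowest on ZT4 in place of ZT12. Acss2, which makes acetyl-CoA from acetate, ranged 2.22-fold on the probe used, from ZT8 to ZT4, while its other probe was lowest on ZT4 (-3.17) and highest on ZT20 (-0.82). The cosine amplitudes of Acly and Me1 were 2.16 ± 0.92 (SE) and 1.80 ± 0.80, with fitted peaks at ZT21.6 and ZT21.2 (limma adjusted p 0.754 for both). The median deviation of the endocrine islet cell markers was also lowest on ZT12 and ZT4, at 1.22, -1.54, 0.26, -2.88, 1.20 and 1.20 from ZT0 to ZT20. The beta cell hormone genes of that list did not share the low ZT4 value, since Ins1 (8.29) and Ins2 (8.75) were highest on ZT4 and Iapp (8.13) second highest. The part of these cells in the levels of Acly and Me1 was not tested.

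Elovl6, Scd2, Fasn and Srebf1 had their highest levels on ZT16 and ZT20. Elovl6, a fatty acid elongase, had levels of 0.75, 0.64, 0.40, 0.55, 1.77 and 1.78. ZT16 and ZT20 lay above the 4 other arrays, and the closest gap, ZT16 over ZT0, was 1.02 log2 units. Scd2, a stearoyl-CoA desaturase, stood at 2.13, 3.05, 2.93, 2.67, 3.74 and 3.79, again with ZT16 and ZT20 above all others. Fasn, fatty acid synthase, had -3.16, -3.23, -2.90, -2.53, -2.26 and -2.12, and Srebf1, the regulator of the arm, had -1.43, -1.38, -0.97, -2.21, -0.39 and -0.42. For both of these too the ZT16 and ZT20 levels were the highest. Acaca, acetyl-CoA carboxylase and the committed step, ranged from 1.43 on ZT0 to 2.42 on ZT4, or to ZT16 as the highest array with quantile normalization. Another Acaca probe, well above background only on ZT0, ZT8 and ZT20, read the opposite way, highest on ZT0 (-2.07) and lowest on ZT4 (-7.23). Amplitudes were 1.46 ± 0.71 (SE) for Elovl6, 0.94 ± 0.83 for Scd2, 1.12 ± 0.68 for Fasn and 0.96 ± 0.87 for Srebf1, and none passed the limma test (adjusted p 0.754, 0.811, 0.754 and 0.818).

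Scd1, the other stearoyl-CoA desaturase, differed more between arrays than any other gene of either arm. Its levels were 0.58, 2.02, 1.49, 2.42, -1.62 and 4.10. The ZT20 level was 52.9-fold above that of ZT16, the neighbouring time read in the same scan, and 97.6% of all genes tested had a range no wider than that. The range was 11.5-fold without ZT16 and 16.5-fold without ZT20. The level of Scd1 minus that of Scd2, centred on its mean, was -3.81 at ZT16 and 1.86 at ZT20, and between 0.01 and 1.30 on the other arrays. A cosine described Scd1 poorly, with an amplitude of 1.05 ± 1.94 (SE, limma adjusted p 0.943).

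Markers of liver and fat cells differed between the arrays on which Scd1 was extreme. Liver and fat are tissues with high stearoyl-CoA desaturase expression. All 10 hepatocyte markers were well above background on ZT20, against 6 to 8 on the other arrays, and the log2 of their summed level was 8.33 on ZT20, 2.08 on ZT16 and 3.09 to 4.95 elsewhere. The summed level rests on the strongest genes. By the median deviation of the hepatocyte list ZT16 was not low, at -0.13, against -1.89 to -0.86 on ZT0 to ZT12. Alb, albumin, was at 6.40 on ZT20 and between -5.34 and -3.14 on the others, and Serpina1c and Cyp2e1 were at 6.87 and 3.42 on ZT20 and 0.17 and -0.31 on ZT16. Serpina1c was lowest on ZT16, while Cyp2e1 was lower on ZT0, ZT4 and ZT8, at -2.01, -0.76 and -1.69. Of 8 adipocyte markers, 4 were well above background on ZT16 and 5 to 7 on the other arrays, with Lep not above background on any of the 6. Their log2 summed level was lowest on ZT16, at 1.97, and 2.28 on ZT20. Fabp4 was at 0.63 on ZT16 and 1.68 to 3.60 elsewhere, Adipoq and Plin1 were not well above background on ZT16 or ZT20, and Pparg was highest on ZT16, at 1.14. The part of these cells in the levels of Scd1 was not tested.

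**Figure D3:**
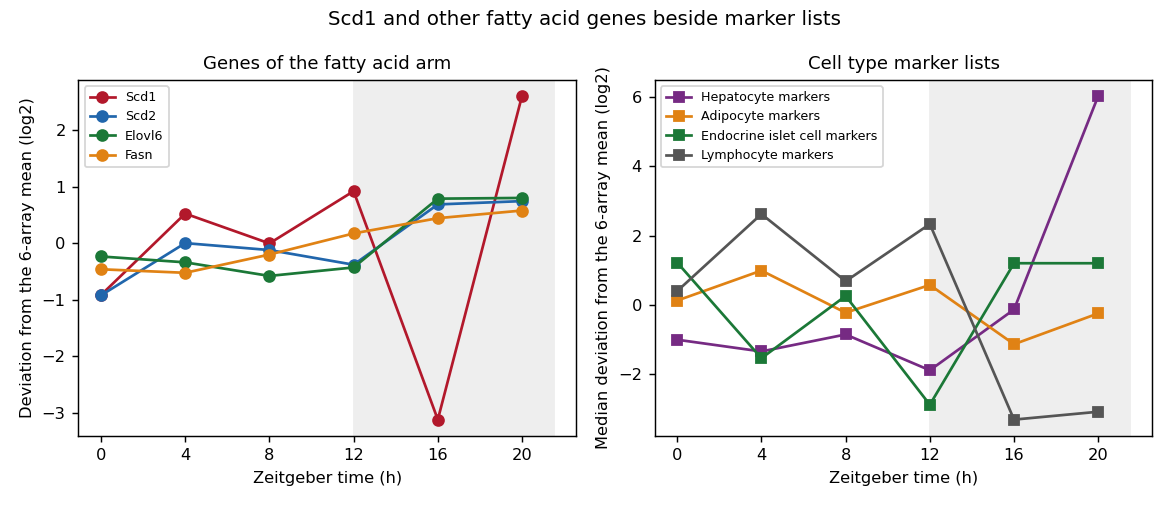
Left, deviation from the 6-array mean (log2 units) of Scd1, Scd2, Elovl6 and Fasn against zeitgeber time (h, dark phase shaded). Right, median deviation of 4 cell type marker lists on the same arrays. Scd1 lies at -3.12 on ZT16 and 2.60 on ZT20, and the hepatocyte list lies at 6.04 on ZT20 and between -1.89 and -0.13 on the others.

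The comparison of the arms showed them apart mainly from ZT12 on. Median deviations of the fatty acid arm were -0.30, -0.24, -0.20, -0.38, 0.44 and 0.71. Those of the sterol arm were -0.12, -0.09, -0.20, 0.19, 0.05 and 0.27, and those of all genes tested stayed between -0.03 and 0.06. The sterol median minus the fatty acid median, in which any scaling by 1 number per array cancels, was 0.18, 0.15, 0.01, 0.57, -0.40 and -0.44. The arms are sets of genes, not replicates, and the difference carries no test. Related genes outside the arms did not share the split. Their medians were ordered the opposite way on ZT12 and ZT16 and lay close together on ZT20. Median deviations of 6 other SREBP2 targets were 0.26, -0.27, -0.19, -0.84, 0.54 and 0.59. Those of 10 other genes of fatty acid synthesis, desaturation and glycerolipids were -0.69, -0.19, -0.28, 0.14, 0.03 and 0.66. Whether the split belongs to SREBP2 and SREBP1 targets in general was not tested.

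Counts of genes in the arms gave the same order as the arm medians on ZT12, ZT16 and ZT20. They did not on ZT4, with 4 of 9 fatty acid genes and 8 of 19 sterol genes above their own mean (48.9% of all genes). On ZT20 all 9 fatty acid genes were above their own mean and on ZT16 8 of 9, against 11 of 19 sterol genes on each array and 53.2% and 50.5% of all genes. On ZT12 the counts were 3 of 9 and 13 of 19 (51.6% of all genes). The levels on ZT16 and ZT20 both exceeded those on ZT4 and ZT12 for 6 of 9 fatty acid genes and 5 of 19 sterol genes (35.8% of all genes). These were Acly, Me1, Fasn, Elovl6, Scd2 and Srebf1, and Fdft1, Sqle, Lss, Tm7sf2 and Insig1. The reverse held for 0 of 9 and 5 of 19 (32.1%), the latter being Mvk, Pmvk, Mvd, Ebp and Stard4. With quantile normalization the first pattern was found in 8 of 9 and 7 of 19 (33.6% of all genes). The second was found in 0 of 9 and 3 of 19 (31.7%). Median centring took the median deviation of all genes on ZT12 from 0.03 to 0.29 log2 units. With it the counts were 5 of 9 and 4 of 19 (25.8% of all genes), and 1 of 9 and 6 of 19 (38.3%).

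Single arrays stood apart for different genes. A level at least 2-fold above the median of the other 5 arrays was found on ZT4 for 4 sterol genes and 0 fatty acid genes (21.8% of all genes), Mvk, Pmvk, Mvd and Ebp, and a level at least 2-fold below it for 4 and 2 (21.8%). On ZT12 the counts were 3 sterol and 0 fatty acid genes above (17.0%) and 1 and 3 below (20.3%), the last being Acly, Me1 and Srebf1. On ZT20 they were 1 and 3 above (12.8%), Insig1 and then Me1, Elovl6 and Scd1. On ZT0 they were 1 and 1 above (16.8%), Srebf2 and Acly, and 4 and 1 below (19.7%).

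ZT8 was the lowest array for 4 of 19 sterol genes and 2 of 9 fatty acid genes (8.63% of all genes), and ZT12 for 3 and 3 (21.1%). ZT20 was the highest array for 5 of 9 fatty acid genes and 5 of 19 sterol genes (15.2% of all genes), or for 2 of 9 and 2 of 19 with median centring (9.16% of all genes). ZT4 was the highest array for 2 of 9 and 6 of 19 (23.4% of all genes) but for 0 of 9 and 5 of 19 with quantile normalization (19.7% of all genes). Without Scd1 the fatty acid median was 0.56 at ZT16 and 0.64 at ZT20. The mean in place of the median gave 0.13 and 0.80, since the mean takes in the low Scd1 value of ZT16. The ZT16 and ZT20 arrays were also those with the lowest lymphocyte markers, at median deviations of -3.32 and -3.09, and endocrine markers stood at 1.20 on both. The part of these cell types in the difference between the arms was not tested.

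**Figure D4:**
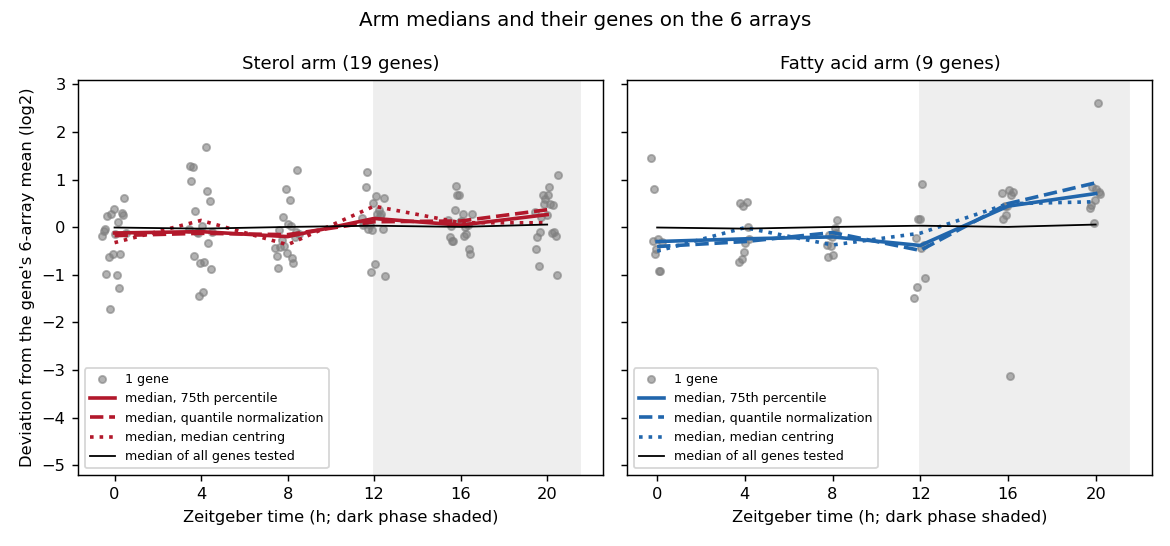
Deviation of each gene from its 6-array mean (grey points, log2 units) and the arm medians under 3 scalings (coloured lines) against zeitgeber time (h, dark phase shaded), for the sterol arm (left) and the fatty acid arm (right), with the median of all genes tested in black. The fatty acid medians on ZT16 and ZT20 lie at 0.44 and 0.71 with the 75th percentile scaling, and the sterol medians at 0.05 and 0.27.

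Fitted peak times fell in the second part of the day for most of the lipid genes. Peaks lay between ZT12 and ZT24 for 8 of 9 fatty acid genes and 13 of 19 sterol genes, as for 54.5% of all genes, although none of these fits passed. Those of Elovl6, Hmgcs1, Acly, Me1, Sqle, Cyp51, Fasn, Srebf2 and Insig1 stayed within 2.57 h of the main fit over the alternatives in which each was fitted. Those of Mvk, Nsdhl, Sc5d, Lss and Pmvk moved by 10.1 to 11.6 h in at least 1 alternative.

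The other genes of these pathways were read the same way. Of 36 such genes 34 were measured, without Gpam and Olah, and 0 passed over all genes (0 at an unadjusted limma p under 0.05). Their median range was 4.06-fold. Among SREBP2 targets outside the 28, Msmo1, a later sterol enzyme, had a 2.32-fold range from ZT8 (2.26) to ZT16 (3.47), and Acat2, the first step, a 1.65-fold range from ZT8 (-2.12) to ZT20 (-1.40).

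Of the genes that process SREBP, Scap, the escort protein, stayed within 1.67-fold, and Insig2 ranged 3.18-fold from ZT4 (0.90) to ZT20 (2.57). For Mbtps1, a protease that cuts SREBP, the probe used was not well above background on ZT4 and ZT16. Its other probe, left out by the outlier filter, was at 5.99 on ZT0 and between 3.66 and 3.89 on the other arrays. Liver X receptors induce Srebf1. Of their genes Nr1h3 ranged 6.11-fold and Nr1h2 3.53-fold, both from ZT20 to ZT4, as did Npc2, of lysosomal cholesterol export, at 3.17-fold. The rest of that list did not share this order: Abca1, Npc1 and Soat1, singled out after their values were seen, were lowest on ZT4, and the median deviation of the list was -0.11 on ZT4 and highest on ZT12, at 0.62. The macrophage markers had median deviations of 1.26 on ZT4 and -1.27 on ZT20, and their part in these levels was not tested. Mlxipl, which encodes the glucose-responsive factor ChREBP, ranged 13.0-fold, from 1.21 on ZT12 to 4.91 on ZT0, the arrays with the extreme endocrine medians and the same extremes as Acly. The other Mlxipl probe, well above background on all 6 arrays, read ZT0 the opposite way, with ZT0 lowest (-4.08) and ZT4 highest (-2.42). Elovl5 and Elovl1, further elongases, ranged 2.31-fold and 5.11-fold. In the isoprenoid branch Fnta, Dhdds and Ggps1 ranged 2.65-fold, 7.26-fold and 5.09-fold.

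Promoter sequence was compared between the arms, since the measure is independent of the array values. RefSeq promoters of GRCm38.p6 were matched for 15 sterol genes and 7 fatty acid genes, and the 250 bases before each start were searched on both strands. The CCAAT box (CCAAT, bound by NF-Y, a partner of SREBP) was found in 15 of 15 sterol genes and 4 of 7 fatty acid genes, against 33.8% of 32851 promoters and 37.5% of genes. The GC box (GGGCGG) was found in 14 of 15 and 4 of 7 (32.7% of promoters and 35.4% of genes). The palindromic E-box (CACGTG, read by CLOCK, BMAL1 and also SREBP1) was found in 4 of 15 and 0 of 7 (6.02% of promoters and 6.86% of genes). The strict sterol regulatory element (TCACNCCAC) was found only in Hmgcs1 among the 22 genes (1.05% of promoters and 1.22% of genes). A gene was counted when any of its promoters held the motif. These motifs do not contain each other, and a match is a description of letters, not of binding. The stretches below show the sterol element and 3 of the E-boxes of sterol genes, and for the fatty acid arm a CCAAT box of Fasn on the opposite strand, with the motif in capitals, 5′ to 3′ on the strand of the gene. They lie at chr13:119690184-119690252 for Hmgcs1 (plus strand), chr5:28071281-28071346 for Insig1 (plus), chr9:42264363-42264428 for Sc5d (minus), chr1:169969313-169969378 for Hsd17b7 (minus) and chr11:120824603-120824667 for Fasn (minus). The motifs begin 137, 101, 98, 143 and 90 bases before the start, in that order.
Hmgcs1: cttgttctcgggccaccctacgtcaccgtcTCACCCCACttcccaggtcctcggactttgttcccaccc
Insig1: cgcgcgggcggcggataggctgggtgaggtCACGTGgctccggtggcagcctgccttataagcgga
Sc5d: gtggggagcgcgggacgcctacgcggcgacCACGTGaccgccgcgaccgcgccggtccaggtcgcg
Hsd17b7: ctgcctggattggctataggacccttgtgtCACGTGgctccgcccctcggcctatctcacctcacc
Fasn: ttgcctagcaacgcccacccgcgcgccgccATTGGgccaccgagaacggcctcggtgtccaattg

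Genes whose promoters carry the E-box did not share a highest array. Insig1 and Hsd17b7 were highest on ZT20, Sc5d on ZT4 and Dhcr7 on ZT0, or with quantile normalization on ZT20, ZT12, ZT20 and ZT12, and the fitted peaks of the 4 genes lay at ZT20.9, ZT17.1, ZT21.0 and ZT16.9 without passing the test. Hmgcs1, with the strict sterol element, had the second smallest range of the 28 genes.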

How the data were processed

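Each of the 6 arrays was 1 pooled islet RNA labelled with Cy3. The deposited scanner output came from Feature Extraction 11.0.1.1 (Agilent), per the file headers. Its processed signal is, per the file headers, an intensity after background subtraction and spatial detrending, beside columns of 0 or 1 flags. The authors' value table held log2 values that shared 1 distribution, its making not given in the sources used here, and served as an alternative. Control and outlier spots were left out and spots averaged, giving 39429 probes. Values were log2 signal minus the 75th percentile. Symbols came through unversioned RefSeq accessions (69.1% of probes). A probe was kept when well above background on at least 3 arrays and not an outlier in all spots on any array, and the probe of highest mean stood for its gene. A 24 h cosine was fitted with limma 3.58.1 in R 4.3.3 and tested with its moderated F test (3 residual degrees of freedom), Benjamini-Hochberg adjusted over all genes at 0.05, after a test on simulated data. Alternatives varied the scaling, background correction, filters, probe choice, arrays, scan covariate and test. All 28 genes are named. From the other lists, the SREBP2 targets (some are not reported here), the 3 genes of highest mean in each pathway list and 2 in each marker list could be named; Alb, Adipoq, Plin1, Lep, Neurod1 and Ins1 were singled out after their values were seen. The genes and lists were chosen with earlier results of these data known.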

Additional observations from a re-analysis of the deposited data

How the results depend on the processing

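With 1 pooled array per time, no replicate error exists, and signal over background limits Insig1 on ZT12. No paired analysis was possible because no time point had a second array. The count of lipid genes called over all genes was 0 in every alternative run, and 0 of 475 combinations of a gene and an alternative passed (smallest limma adjusted p 0.293). Leaving out 1 array gave 0 to 2 lipid genes, and 347 to 4026 of all genes, at an unadjusted limma p under 0.05, where all 6 arrays gave 0 and 965; the 2 arose without ZT8. All genes numbered 440 with scan as a covariate (1 residual degree of freedom) and 605 with the exact permutation test. The causes were not tested. Lipid genes with a range of at least 2-fold numbered 16 to 27. The sterol median minus the fatty acid median stayed between 0.46 and 0.69 at ZT12, -0.59 and -0.05 at ZT16, and -0.64 and -0.29 at ZT20; at ZT0, ZT4 and ZT8 it took both signs. Of the 7 further probes above background on all 6 arrays, 3 shared the highest array with the probe used and 0 the lowest. The 4 arrays of 1 scan, leaving out ZT4 and ZT12 together, and leaving out Scd1 were alternatives chosen after seeing the data.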
